A study of Mus musculus with 27 samples.

Results

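Adenylyl cyclases are the membrane enzymes that make cyclic AMP from ATP. RNA of 8 mouse genes of the family (Adcy1, Adcy2, Adcy3, Adcy5, Adcy6, Adcy7, Adcy8 and Adcy9) was measured in frontal cortex (FX) and striatum (STR). The 8 genes were taken by symbol from the 52636 Ensembl gene identifiers of the deposited count tables, and each matched 1 identifier.

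Every cyclase of this family is turned on by the stimulatory G protein subunits, Gs in most cells and Golf in olfactory neurons and striatum, and the members differ in what else they read. ADCY1, ADCY8 and ADCY3 respond to calcium and calmodulin, ADCY5 and ADCY6 are inhibited by calcium and by Gi, ADCY2 and ADCY7 are stimulated further by G protein beta-gamma subunits, and ADCY9 is poorly activated by forskolin. Medium spiny neurons, the projection neurons of the striatum, use ADCY5 downstream of the dopamine D1 receptor and the adenosine receptor encoded by Adora2a, whereas ADCY1 and ADCY8 link calcium entry to cyclic AMP at synapses of cortex and hippocampus.

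The study asked how loss of an enhancer between H19 and Igf2 affects the mouse brain. All mice were adults of about 2.5 months on the 129S1 background, either wild-type (+/+) or homozygous for the deletion (Igf2enh-/-). The deletion was made in embryonic stem cells, is present in every cell and so belongs to no cell type, and keeps a loxP footprint because an Hprt-CRE was used to take out the Pgkneo marker. Frontal cortex came from 6 wild-type mice (3 females, 3 males) and 6 Igf2enh-/- mice (3 females, 3 males), and striatum from 7 wild-type mice (3 females, 4 males) and 8 Igf2enh-/- mice (4 females, 4 males). No label links a cortical library to a striatal library of the same animal, and the p-values treat all 27 libraries as independent.

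Total counts were 23686945 to 33926904 per library. Levels are CPM, counts scaled to library size, after trimmed mean of M-values (TMM) scaling, with factors from 0.979 to 1.03. All 8 genes had at least 1 CPM in every library, so none was lost to the filter on low counts. The smallest counts behind a value were 131 for Adcy7 and 138 for Adcy8, and the largest was 61668 for Adcy5. In bulk tissue, fewer cells of a type and less RNA per cell cannot be told apart. Likewise, region cannot be told apart from any handling that differed between the tissues.

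The labelled regions were checked with marker genes. Summed over 10 medium spiny neuron markers (such as Drd1, Adora2a and Ppp1r1b), the level was 185 to 267 CPM in the frontal cortex libraries and 3850 to 10630 CPM in the striatal libraries. Summed over 10 cortical projection neuron markers (such as Slc17a7), it was 3349 to 4224 CPM in frontal cortex and 1088 to 2730 CPM in striatum. Of the marker genes tested in wild-type mice, 9 of 9 of medium spiny neurons, 5 of 5 of oligodendrocytes, 4 of 5 of microglia and 1 of 1 of olfactory bulb were higher in striatum. By contrast 7 of 7 of cortical projection neurons, 3 of 4 of GABAergic interneurons and 4 of 4 of meningeal fibroblasts were lower, and astrocytes had 1 higher and 1 lower of 5. The olfactory bulb list held Th, Eomes, Doc2g and Cdhr1, of which only 1 reached the filter on low counts and was tested. Th codes for the dopamine synthesis enzyme tyrosine hydroxylase, so this list does not mark olfactory bulb alone. Some genes of the neuronal and meningeal fibroblast lists also went untested. None passed of 2 oligodendrocyte precursor, 4 endothelial and 1 choroid plexus genes. The rest of the 6 choroid plexus markers were under the filter on low counts and went untested. Summed over these 6, the level was 3.8 to 5.2 CPM in wild-type frontal cortex and 28.0 to 65.4 CPM in wild-type striatum. In Igf2enh-/- mice the sum was 3.62 to 8.03 CPM in frontal cortex and 28.3 to 3285 CPM in striatum. One wild-type male striatal library, number 20, stood apart, with the lowest of 15 striatal values for 10 of 10 medium spiny neuron markers and the highest for 10 of 10 cortical and 5 of 5 oligodendrocyte markers. One Igf2enh-/- female striatal library, number 15, had the highest value for 6 of 6 choroid plexus markers, which summed to 3285 CPM there. Results are given below with and without these libraries where both were computed and differ.

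The genes lie on 6 chromosomes, with GRCm38.p6 coordinates from RefSeq. Adcy1 spans chr11:7063433-7178506, Adcy2 chr13:68620043-68999600, Adcy3 chr12:4133116-4213525 and Adcy5 chr16:35154494-35305743. Adcy6 spans chr15:98589978-98610287, Adcy7 chr8:88272190-88329965, Adcy8 chr15:64699035-64922296 and Adcy9 chr16:4284886-4437236. Adcy3 shares 18128 bases with Cenpo, and Adcy7 shares 72 bases with Brd7. Smaller genes or gene models lie within or across Adcy2 (Gm7979, Gm35161), Adcy5 (Gm46550, Gm25179), Adcy8 (Gm30752) and Adcy9 (Gm6142). Without a stated strand setting, reads of overlapping exons cannot be assigned to one gene or the other.

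RefSeq promoter windows (300 bases, from 250 before to 50 after an annotated start, GRCm38.p6) were at hand for 6 of the 8 genes, 9 windows in all. They were searched on both strands for the GC box (GGGCGG or CCGCCC), bound by SP1-type factors, and for the short cAMP response element (TGACG or CGTCA), the core of the site bound by CREB. A GC box occurred in 6 of the 9 windows, 1 window of each of the 6 genes, against 35.7% of all 32851 windows. The short element occurred in 1 window each of Adcy7 and Adcy9, against 20.8% of all windows. The full 8-base element, TGACGTCA, which overlaps the short one, was in none of the 9 windows and in 1.79% of all windows. The sequences below show 1 match for each gene, in capitals, with up to 10 flanking bases on each side, read along the gene's strand and ordered from the 2 genes that were higher in striatum to those that were lower.
Adcy5 GC box, 48 bases before the start, chr16:35154806-35154831, plus strand: gcggcgcgggGGGCGGggaggcggcg
Adcy3 GC box, 31 bases before the start, chr12:4133356-4133381, plus strand: cggggaggggCCGCCCgcctcctggg
Adcy1 GC box, 41 bases before the start, chr11:7063382-7063407, plus strand: gccggggcgcGGGCGGgcgccagtgc
Adcy2 GC box, 97 bases before the start, chr13:68999623-68999648, minus strand: ggccgtcgggGGGCGGtggtgggcgc
Adcy7 short element, 28 bases before the start, chr8:88282954-88282978, plus strand: atcatagagcCGTCAggggggtggg
Adcy9 short element, 24 bases before the start, chr16:4420508-4420532, minus strand: gacccggcggTGACGtgcgcgggcc
The GC box was thus shared by genes that were higher and genes that were lower in striatum. The window of Adcy1 held 5 GC boxes, that of Adcy9 also 5, that of Adcy5 4 and that of Adcy2 3. A match describes letters only, not a bound site. The annotated starts used were not always the outer end of a gene. The Adcy9 window, chr16:4420449-4420748, and every Adcy7 window, the first at chr8:88282742-88283041, lay inside the gene spans given above.

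The striatum and the frontal cortex differed in every one of the 8 genes, in both genotypes. Adcy5 and Adcy3 were higher in striatum, and Adcy1, Adcy2, Adcy6, Adcy7, Adcy8 and Adcy9 were lower. In wild-type mice 2 of 8 members were called higher in striatum and 6 of 8 lower (edgeR's quasi-likelihood test, Benjamini-Hochberg adjusted p below 0.05). Over all 13414 genes tested, 34.5% were called higher and 33.2% lower. In Igf2enh-/- mice the members again had 2 calls higher and 6 lower, against 34.5% and 34.5% of all genes, so most genes of these tissues pass this test in one direction or the other. The median absolute log2 difference between regions was 1.10 over the 8 members and 0.23 over all genes tested in wild-type mice, and 1.23 and 0.24 in Igf2enh-/- mice. All 8 calls were made in both genotypes under 10 alternative fits each and when each of the 27 libraries was left out.

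**Figure D1:**
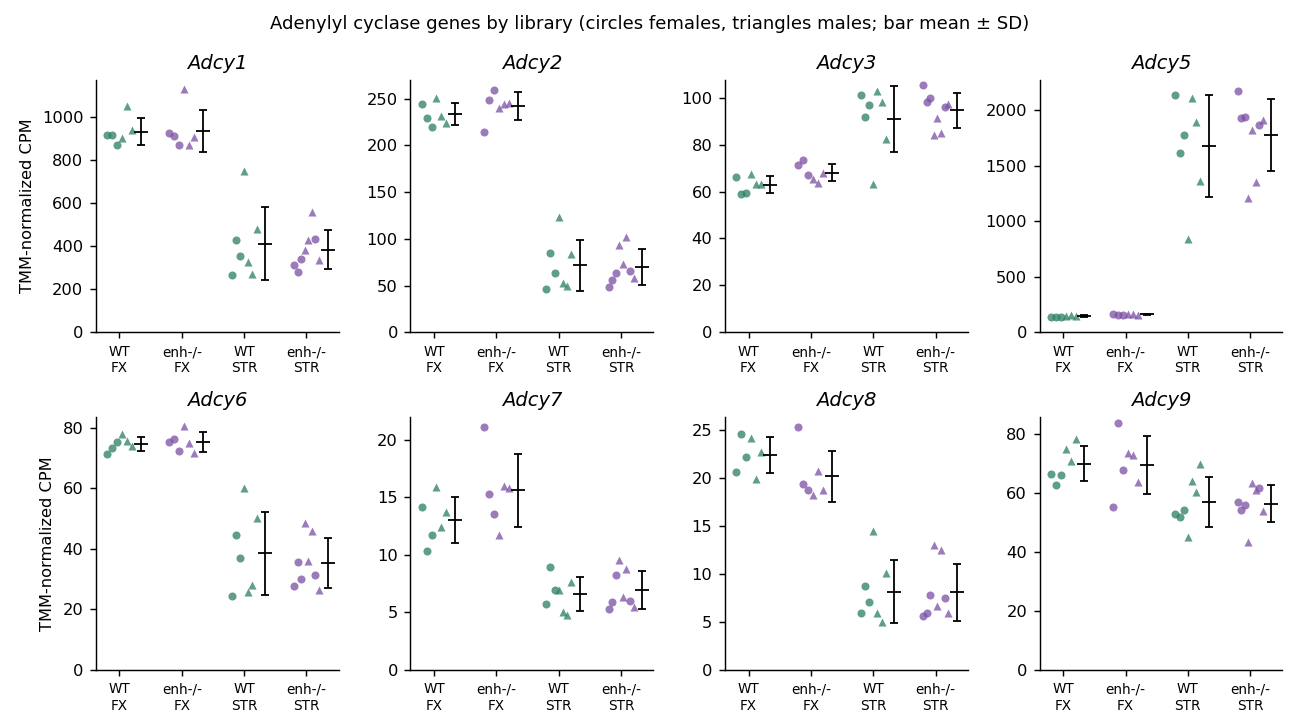
TMM-normalized CPM (y axes, each starting at 0) of the 8 adenylyl cyclase genes in each library of the 4 groups, wild-type (WT) and Igf2enh-/- (enh-/-) frontal cortex (FX) and striatum (STR), with circles for females, triangles for males and bars for mean ± SD. Adcy5 runs from 134.8 to 167.7 CPM in frontal cortex and from 844.9 to 2174 CPM in striatum, while Adcy1 runs from 867.7 to 1128 and from 266.0 to 750.6 CPM.

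Among the cyclases inhibited by calcium and Gi, Adcy5 had the larger difference between regions. In wild-type frontal cortex Adcy5 had 134.8, 144.6 and 154.7 CPM (lowest, median, highest; 145.3 ± 7.16, SD, n = 6), and in wild-type striatum 844.9, 1777 and 2135 CPM (1677 ± 456, SD, n = 7). With the deletion it had 156.8, 160.3 and 167.7 CPM in frontal cortex (161.5 ± 5.15, SD, n = 6) and 1214, 1893 and 2174 CPM in striatum (1779 ± 323, SD, n = 8). The lowest striatal library, number 20, was still above every frontal cortex library. The log2 fold change, striatum over frontal cortex, was 3.53 in wild-type mice (standard error, SE, 0.162, edgeR adjusted p = 6.22e-15) and 3.45 in Igf2enh-/- mice (SE 0.160, edgeR adjusted p = 6.12e-15), or 11.6-fold and 11.0-fold. Adcy6, found in most tissues and close to Adcy5 in its regulation, went the other way. It had 71.29 to 77.95 CPM in wild-type frontal cortex and 24.38 to 60.19 CPM in wild-type striatum, with log2 fold changes of -0.97 (SE 0.162) in wild-type and -1.10 (SE 0.156) in Igf2enh-/- mice. The regions did not overlap in either genotype for Adcy5 or for Adcy6.

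Of the calcium-stimulated cyclases, Adcy1 and Adcy8 were lower in striatum and Adcy3 was higher. Adcy1, the neuronal calmodulin-dependent cyclase, had 867.7, 914.8 and 1052 CPM in wild-type frontal cortex (lowest, median, highest) and 266.0, 355.1 and 750.6 CPM in wild-type striatum. In Igf2enh-/- mice it had 868.3, 909.9 and 1128 CPM in frontal cortex and 277.9, 361.0 and 558.6 CPM in striatum. The regions did not overlap, and the log2 fold changes were -1.21 (SE 0.170, edgeR adjusted p = 8.85e-07) and -1.29 (SE 0.164, edgeR adjusted p = 1.49e-07). Adcy8, which like Adcy1 is driven by calmodulin, was low in both tissues, with 19.87 to 24.65 CPM in wild-type frontal cortex and 5.01 to 14.5 CPM in wild-type striatum. Its log2 fold changes were -1.48 (SE 0.204) and -1.33 (SE 0.196), again without overlap between the regions.

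Adcy3, the cyclase of olfactory neurons and of primary cilia of neurons, was the only other member that was higher in striatum. It had 58.95, 63.09 and 67.32 CPM in wild-type frontal cortex and 63.39, 96.83 and 103.0 CPM in wild-type striatum. The overlap came from library 20 alone, since the next lowest wild-type striatal library had 82.39 CPM. In Igf2enh-/- mice the values were 63.66, 67.41 and 73.45 CPM in frontal cortex and 83.98, 96.64 and 105.3 CPM in striatum, with no overlap. The log2 fold changes were 0.53 (SE 0.0750, edgeR adjusted p = 8.41e-07) and 0.48 (SE 0.0729, edgeR adjusted p = 2.67e-06), or 1.45-fold and 1.39-fold. Cenpo lies across part of Adcy3, and how many Adcy3 counts come from shared sequence was not tested.

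Of the 8 genes, those of cyclases stimulated by beta-gamma subunits, Adcy2 and Adcy7, were lower in striatum. Adcy4, a gene of that group outside the 8, was not called (wild-type log2 fold change 0.05, edgeR adjusted p = 0.719). Adcy2, a brain form, had 219.5, 230.9 and 250.3 CPM in wild-type frontal cortex and 46.32, 63.54 and 123.2 CPM in wild-type striatum. The Igf2enh-/- libraries had 214.5, 244.8 and 259.6 CPM in frontal cortex and 48.46, 64.13 and 102.0 CPM in striatum. Its log2 fold changes, -1.72 (SE 0.173) and -1.80 (SE 0.165), were the most negative of the 8 in each genotype. Adcy7, which is prominent in immune cells, had 10.37 to 15.94 CPM in wild-type frontal cortex and 4.77 to 8.91 CPM in wild-type striatum, with log2 fold changes of -0.99 (SE 0.160) and -1.17 (SE 0.152). Neither Adcy2 nor Adcy7 overlapped between regions in either genotype.

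Adcy9, a widely expressed cyclase, differed least between the tissues. It had 62.89, 68.61 and 78.59 CPM in wild-type frontal cortex and 45.13, 54.24 and 70.08 CPM in wild-type striatum, and the groups overlapped in both genotypes. The log2 fold change was -0.30 in wild-type mice (SE 0.0944, edgeR adjusted p = 0.00697) and -0.30 in Igf2enh-/- mice (SE 0.0914, edgeR adjusted p = 0.00558). In all, 6 of 8 members did not overlap between regions in wild-type mice and 7 of 8 in Igf2enh-/- mice, against 37.8% and 41.9% of all genes tested.

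With RNA integrity added as a term, the wild-type log2 fold change of Adcy7 became -0.60, a move of over 1.5 times. Under that term the other wild-type values were -0.90 for Adcy1, -1.33 for Adcy2, 0.43 for Adcy3, 3.23 for Adcy5, -0.67 for Adcy6, -1.05 for Adcy8 and -0.36 for Adcy9. Every wild-type value but that of Adcy9 was thus smaller in size with the term than without it. Whether RNA integrity differed between the regions was not tested. All 8 remained below an adjusted p of 0.05 in edgeR with the integrity term, in both genotypes. Without libraries 15 and 20 the wild-type values were 3.65 for Adcy5, -1.39 for Adcy1 and -0.24 for Adcy9.

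**Figure D2:**
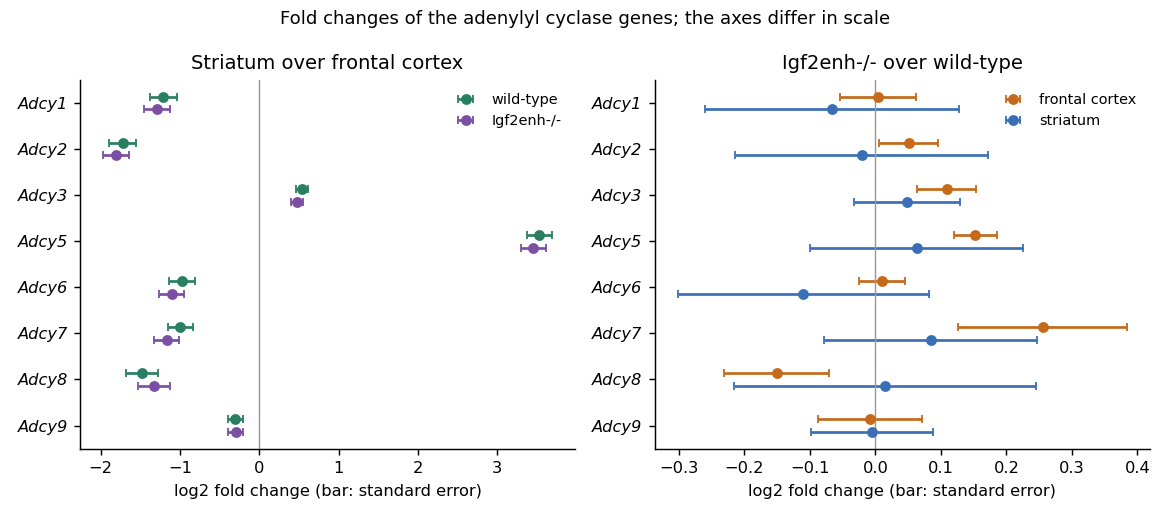
Log2 fold changes with standard errors (x axes, which differ in scale) of the 8 genes for striatum over frontal cortex in each genotype (left) and for Igf2enh-/- over wild-type in each region (right). Region values run from -1.80 to 3.53 and nearly coincide between genotypes, while genotype values run from -0.15 to 0.26.

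The make-up of the family was compared per kilobase of exon, since longer transcripts give more reads. In wild-type frontal cortex the order of the mean levels was Adcy1 (74.4 CPM per kb), Adcy2 (55.4), Adcy5 (20.7), Adcy9 (13.5), Adcy6 (12.4), Adcy3 (10.1), Adcy8 (4.45) and Adcy7 (2.06). The order was identical in Igf2enh-/- frontal cortex, and in both groups only the neighbours Adcy9 and Adcy6 had overlapping ranges. In wild-type striatum Adcy5 stood first with 239 CPM per kb, followed by Adcy1 (32.8), Adcy2 (17.1), Adcy3 (14.6), Adcy9 (11.0), Adcy6 (6.40), Adcy8 (1.62) and Adcy7 (1.04). Igf2enh-/- striatum had the same order, led by Adcy5 at 254 CPM per kb. In striatum only the gaps between Adcy5 and Adcy1 and between Adcy6 and Adcy8 were free of overlap in both genotypes. Adcy3 thus moved from the sixth place in frontal cortex to the fourth in striatum, and Adcy5 from the third to the first.

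As a share of the summed CPM per kb of the 8 genes, Adcy5 held 10.7% ± 0.289 (SD, n = 6) in wild-type frontal cortex and 72.6% ± 11.5 (SD, n = 7) in wild-type striatum. In Igf2enh-/- mice it held 11.6% ± 0.620 (SD, n = 6) and 75.1% ± 6.18 (SD, n = 8). Across single libraries its share was 10.3% to 12.5% in frontal cortex and 49.7% to 82.5% in striatum, with library 20 the lowest. The share of Adcy1 fell from 38.5% ± 1.68 in wild-type frontal cortex to 10.9% ± 6.64 in wild-type striatum, and that of Adcy2 from 28.7% ± 1.24 to 5.64% ± 3.19. In the Igf2enh-/- groups Adcy1 held 37.6% ± 2.50 and 9.34% ± 2.90, and Adcy2 held 29.0% ± 1.99 and 5.15% ± 2.05. Shares add up to the whole, so a rise of one lowers the others, and no test was made on them.

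Adcy3 was higher in striatum in CPM, yet its share was lower there, 5.22% ± 0.210 in wild-type frontal cortex and 4.49% ± 0.176 in wild-type striatum. Adcy9 held 6.98% and 3.43%, Adcy6 6.42% and 2.11%, Adcy8 2.31% and 0.538%, and Adcy7 1.07% and 0.331% in the same groups. As plain shares of counts, which favour long transcripts, Adcy5 held 9.36% in wild-type frontal cortex and 69.9% in wild-type striatum, and Adcy1 held 60.0% and 18.3%.

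**Figure D3:**
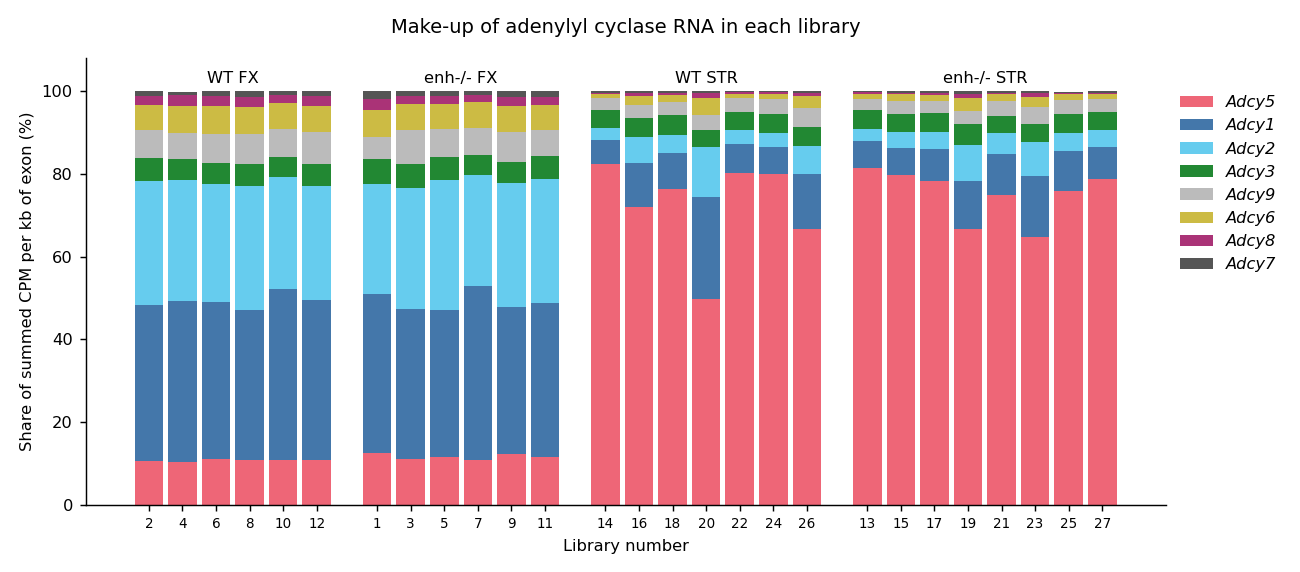
Share of each gene (%, y axis) in the summed CPM per kb of exon of the 8 adenylyl cyclase genes, 1 bar for each of the 27 libraries, named by number and grouped by genotype and region. Adcy1 and Adcy2 make up most of each frontal cortex bar, Adcy5 is the largest segment of every striatal bar, and library 20 has the lowest striatal share of Adcy5, 49.7%.

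The summed level itself was higher in striatum. It was 193 ± 7.47 CPM per kb (SD, n = 6) in wild-type and 199 ± 8.16 (SD, n = 6) in Igf2enh-/- frontal cortex, with single libraries from 183 to 214. In striatum it was 324 ± 45.9 (SD, n = 7) in wild-type and 336 ± 37.9 (SD, n = 8) in Igf2enh-/- mice, with single libraries from 243 to 381. The regions did not overlap in the sum, and the genotypes overlapped in each region. The higher sum went with Adcy5, at 20.7 CPM per kb in wild-type frontal cortex and 239 in wild-type striatum. Of the other genes only Adcy3 was higher in striatum, and the rest were lower. The ratio of Adcy5 to Adcy1 per kb was 0.263 to 0.300 in wild-type frontal cortex and 2.01 to 14.3 in wild-type striatum.

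Within the striatum Adcy1, Adcy2, Adcy6 and Adcy8 tended to be high in libraries where Adcy3 and Adcy5 were low. Adcy7 and Adcy9 followed this less closely, and library 20 ranked 6 and 14 of 15 from the highest for them. Library 20, with a medium spiny neuron marker sum of 3850 CPM, had the highest Adcy1, Adcy2, Adcy6 and Adcy8 and the lowest Adcy3 and Adcy5 of the 15 striatal libraries. Its cortical marker sum, 2730 CPM, was the highest of the 15. The next lowest spiny neuron marker sum was 5488 CPM in library 19, an Igf2enh-/- male, which had the lowest Adcy5, Adcy3 and Adcy9 and the highest Adcy6, Adcy7 and Adcy8 of its group. Unlike in library 20, its cortical marker sum was not high, at 1317 CPM against a group median of 1422 CPM. Its Adcy1, 382.6 CPM, was near the group mean of 383.8 CPM. Library 15, with its choroid plexus RNA, took ranks between 5 and 13 of 15 for all 8 genes. The part of tissue make-up in the striatal spread was not tested.

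**Figure D4:**
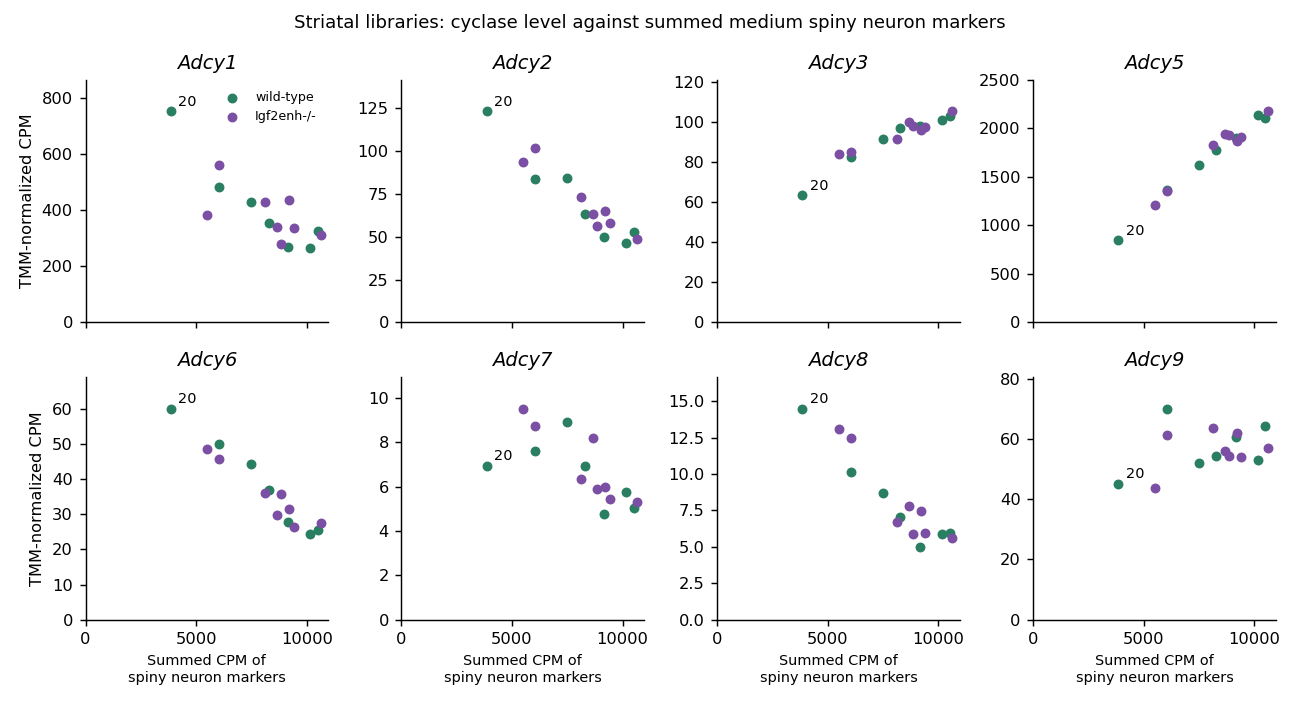
TMM-normalized CPM of each gene (y axes) against the summed CPM of 10 medium spiny neuron markers (x axes) in the 15 striatal libraries, colored by genotype, with library 20 numbered. Adcy5 and Adcy3 are lowest and Adcy1, Adcy2, Adcy6 and Adcy8 highest at the left end, where library 20 lies at 3850 CPM, and Adcy7 and Adcy9 are more scattered.

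Likeness was measured as Pearson's r of log2(CPM + 0.5), taken as residuals from the 4 group means over the 27 libraries, and is a description without a test, since all points share their libraries. Among members, r was 0.92 between Adcy5 and Adcy3, 0.92 between Adcy2 and Adcy6, and -0.92 between Adcy5 and Adcy2. The spread of such genes lay mostly in striatum. In wild-type mice Adcy5 had 1677 ± 456 CPM (SD, n = 7) in striatum and 145.3 ± 7.16 CPM (SD, n = 6) in frontal cortex. Adcy2 had 71.9 ± 27.4 and 233 ± 11.8 CPM in the same groups. Their r thus describes mainly the striatal libraries, and r was not taken within each region. Library 20 was the highest or lowest striatal library for Adcy1, Adcy2, Adcy3, Adcy5, Adcy6 and Adcy8. Likeness was not measured without that library. Adcy9 had its largest r in size with any other member at 0.37 with Adcy5. Among 12711 other genes, the most like Adcy5 were Pde1b (r = 0.97), Actn1 (0.97) and Accn4 (0.97). Those most like Adcy1 were Alpk1 (0.94), Fmn1 (0.93) and Strbp (0.93), and those most like Adcy3 were Tusc3 (0.96), Aff3 (0.95) and Actn2 (0.95).

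For Adcy2 they were Ccdc136 (0.98), Trim3 (0.97) and Cdk14 (0.97), and for Adcy6 Ptpn3 (0.97), Galnt9 (0.97) and Mast1 (0.97). Adcy8 was most like Prnp (0.95), Grik1 (0.95) and Ccdc136 (0.94), Adcy7 most like Tubb2a (0.89), Mrgpre (0.88) and Pls3 (0.87), and Adcy9 most like Nrip1 (0.87), Add2 (0.82) and Fnip1 (0.81). Pde1b codes for a calmodulin-dependent phosphodiesterase that breaks down cyclic nucleotides. Adcy7 and Adcy9 had less close partners than the other 6 genes.

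The comparison of genotypes asked whether the enhancer deletion changed cyclase RNA. In frontal cortex 0 of 8 members passed the test in edgeR, with 2 of 8 at an unadjusted p under 0.05, while 0.38% of the 13936 genes tested were called and 1877 had an unadjusted p under 0.05. Adcy5 came nearest. Its levels of 134.8 to 154.7 CPM in wild-type and 156.8 to 167.7 CPM in Igf2enh-/- mice did not overlap, and it was the 1 member of 8 of which this was so, against 1.31% of all genes tested. The log2 fold change, Igf2enh-/- over wild-type, was 0.15 (SE 0.0328, 1.11-fold, edgeR quasi-likelihood adjusted p = 0.0604).

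That call depended on the test. Adcy5 passed in edgeR's likelihood ratio test, the test named in the study's methods (adjusted p = 0.0134, with 1.66% of all genes called), in DESeq2 (adjusted p = 0.00298, with 1.77% called) and in edgeR without the filter on low counts (adjusted p = 0.0353, with 1.39% called). It did not pass in limma-voom (adjusted p = 0.0644), under either other scaling or the filterByExpr filter (adjusted p of 0.0635 to 0.0704 in edgeR), nor without sex or with RNA integrity as a term (adjusted p of 0.0789 and 0.119 in edgeR). The joint fit of both regions gave 0.15 with a larger SE of 0.150 (adjusted p = 0.883 in edgeR). That fit shares its estimate of the spread with the striatal libraries, so a difference of this size was not detectable in it. Leaving out each library gave log2 fold changes of 0.13 to 0.17 and adjusted p of 0.0567 to 0.150, and 0 of 12 such fits passed. The spiny neuron marker sum was 252 ± 10.0 CPM (SD, n = 6) in wild-type and 237 ± 26.4 CPM (SD, n = 6) in Igf2enh-/- frontal cortex, where library 1 was lowest with 185.3 CPM and the median was 245.8 CPM. The meningeal fibroblast marker sum was 51.5 ± 15.5 and 68.35 ± 17.5 CPM, and the olfactory bulb marker sum 24.6 ± 5.71 and 37.4 ± 22.8 CPM (SD, n = 6 each). The olfactory bulb list includes Th, whose promoter the study reports as a target of the deleted enhancer. Between genotypes that sum may therefore not reflect tissue alone. The libraries highest in Adcy5, number 1 (167.7 CPM) and number 9 (167.1 CPM), held the highest meningeal fibroblast sum (101.7 CPM) and the highest olfactory bulb sum (82.2 CPM) of the frontal cortex libraries, in that order. Other libraries went differently. Wild-type library 2 had a meningeal fibroblast sum of 79.96 CPM and 142.4 CPM of Adcy5. Igf2enh-/- library 3 had an olfactory bulb sum of 36.13 CPM and 157.1 CPM of Adcy5. Igf2enh-/- library 7 had sums of 54.4 and 22.94 CPM and 163.4 CPM of Adcy5. The part of these cell types in the Adcy5 values was not tested.

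Of the other members in frontal cortex, Adcy3 had 58.95 to 67.32 CPM in wild-type and 63.66 to 73.45 CPM in Igf2enh-/- mice (log2 fold change 0.11, SE 0.0448, edgeR adjusted p = 0.306). Adcy7 had the largest log2 fold change, 0.26, though it did not pass (SE 0.129, edgeR adjusted p = 0.407). The highest Adcy7 library, number 1 with 21.17 CPM, also had the lowest spiny neuron, cortical and oligodendrocyte marker sums and the highest astrocyte, choroid plexus and meningeal fibroblast sums of the frontal cortex libraries, and without it the value was 0.14. Adcy8 was at -0.15 (SE 0.0796), Adcy2 at 0.05, and Adcy1, Adcy6 and Adcy9 were between -0.01 and 0.01.

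In striatum 0 of 8 members passed for genotype in edgeR, 0 of 8 had an unadjusted p under 0.05, and 0 passed in DESeq2, limma-voom or the likelihood ratio test. Of all 13875 genes tested 0.036% were called, and 1394 had an unadjusted p under 0.05. The log2 fold changes lay between -0.11 for Adcy6 and 0.08 for Adcy7, with standard errors from 0.0810 to 0.231 and adjusted p from 0.898 to 0.992 in edgeR. All 8 members overlapped between genotypes, while 0.231% of all genes did not. The sign of several values rested on library 20. Without it Adcy1 went from -0.07 to 0.11, Adcy2 from -0.02 to 0.13, Adcy3 from 0.05 to -0.013, Adcy5 from 0.06 to -0.037 and Adcy6 from -0.11 to 0.0074.

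The standard errors set what these data could show. For Adcy5 the standard error of the genotype effect was 0.0328 in frontal cortex and 0.163 in striatum, so a difference of the frontal cortex size was not detectable in striatum at this spread. The difference between the 2 genotype effects was tested in the joint fit, and 0 of 8 members passed in edgeR, 0 had an unadjusted p under 0.05, and 0 passed in DESeq2 or limma-voom. The values ran from -0.18 to 0.15, each with an adjusted p of 1.00, and 0% of all 13414 genes were called, with 405 at an unadjusted p under 0.05.

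Sex was a term of the model. In frontal cortex 0 of 8 members passed for sex in edgeR, against 0.0431% of all genes, with 0 of 8 at an unadjusted p under 0.05 and log2 values, males over females, from -0.07 to 0.11. In striatum 0 of 8 passed, against 0.0432% of all genes, again with 0 of 8 at an unadjusted p under 0.05. The values there were larger, 0.38 for Adcy2, 0.41 for Adcy8, 0.35 for Adcy1 and -0.29 for Adcy5, with adjusted p from 0.473 to 0.968 in edgeR. Library 20 is a male, and without it the values were 0.25 for Adcy2, 0.28 for Adcy8, 0.19 for Adcy1 and -0.21 for Adcy5. Without libraries 15 and 20 the value of Adcy1 was 0.14. By other tools, 0 of 8 members passed for sex in either region.

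The genotype effect was also compared between the sexes. In frontal cortex 0 of 8 members passed, against 0.0215% of all genes, and 1 of 8, against 6.4% of all genes, had an unadjusted p under 0.05. This was Adcy3, with 61.5 ± 4.12 CPM in wild-type and 70.5 ± 3.22 CPM in Igf2enh-/- females (SD, n = 3 each), and 64.5 ± 2.44 and 65.5 ± 2.05 CPM in males (SD, n = 3 each). Its difference between the sexes was -0.17 on the log2 scale (SE 0.0789, edgeR adjusted p = 0.764). In striatum 0 of 8 passed and 0 of 8 had an unadjusted p under 0.05, against 0% of all genes called and 355 at an unadjusted p under 0.05. DESeq2, limma-voom and the likelihood ratio test called 0 of 8 in either region, so genotype effects were not shown to differ between the sexes.

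Within frontal cortex of females alone, 0 of 8 members passed for genotype in edgeR, against 0.00718% of all genes, and 3 of 8 had an unadjusted p under 0.05, against 11.0% of all genes. Adcy5 had 139.7 ± 4.28 CPM in wild-type and 160.7 ± 6.06 CPM in Igf2enh-/- females (SD, n = 3 each), a log2 fold change of 0.20 (SE 0.0443, edgeR adjusted p = 0.240). Adcy7 had 12.1 ± 1.90 and 16.7 ± 3.98 CPM (SD, n = 3 each), a log2 fold change of 0.47 (SE 0.171, edgeR adjusted p = 0.353), which became 0.26 without library 1. Adcy3 was at 0.20 (SE 0.0559, edgeR adjusted p = 0.291).

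These values also depended on the test. In females Adcy5 passed in DESeq2 (adjusted p = 0.0184, with 0.402% of all genes called), and Adcy5 and Adcy7 passed in edgeR without the filter on low counts (adjusted p of 0.0407 and 0.000258, with 2.14% called). Neither passed in the likelihood ratio test, in limma-voom or with any 1 library left out. In males 0 of 8 passed in edgeR or under any of these alternatives, against 0.144% of all genes in edgeR. There 1 of 8 had an unadjusted p under 0.05, namely Adcy5 with 150.9 ± 3.91 CPM in wild-type and 162.4 ± 5.22 CPM in Igf2enh-/- males (SD, n = 3 each, log2 fold change 0.10, SE 0.0441, edgeR adjusted p = 0.447), against 10.3% of all genes. In striatum 0 of 8 passed in females, against 0.00721% of all genes, and 0 of 8 in males, against 0.036%, with 0 of 8 at an unadjusted p under 0.05 in either sex and 0 called by DESeq2, limma-voom or the likelihood ratio test.

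Cyclases act between receptors and G proteins on one side and protein kinase A and phosphodiesterases on the other, and 65 genes of these roles were listed. Of the 62 tested between regions, 31 were higher and 23 lower in wild-type striatum, and 31 were higher and 22 lower in Igf2enh-/- striatum, against 34.5% of all genes higher and 33.2% lower in wild-type and 34.5% in each direction in Igf2enh-/- striatum. The median log2 difference was 0.15 in wild-type mice and 0.01 over all genes. Named genes are the 2 of largest change in each role. Of 7 G protein alpha subunit genes 2 were higher and 3 lower. Gnal, which codes for Golf, had 171 ± 12.2 CPM in wild-type frontal cortex (SD, n = 6) and 791 ± 199 CPM in wild-type striatum (SD, n = 7), a log2 fold change of 2.22 (SE 0.143). Gnas, which codes for Gs, had 1112 ± 26.9 and 531 ± 169 CPM, a log2 fold change of -1.08 (SE 0.163).

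Of 11 receptor genes tested, 8 were higher and 3 lower. Adora2a, an adenosine receptor coupled to Golf, rose by 7.55 on the log2 scale (SE 0.243), and Drd1, the D1 dopamine receptor, rose by 5.16 (SE 0.217). Among 9 beta, gamma and chaperone genes 5 were higher and 4 lower. These included Gng7, a gamma subunit that pairs with Golf in striatum, at 4.26 (SE 0.178), and Ric8b, a chaperone of Gs and Golf, at 1.68 (SE 0.120).

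Of 7 calmodulin and regulator genes 3 were higher and 3 lower, led by Rgs9 at 6.89 and Rgs2 at 1.57, both regulators of G protein signalling. Phosphodiesterases had 5 higher and 3 lower of 8, with Pde10a at 4.69 (SE 0.214) and Pde1b at 3.35 (SE 0.165). Protein kinase A genes had 1 higher and 6 lower of 8, with Prkar1b, a regulatory subunit, at -1.42 (SE 0.138) and Pkib, an inhibitor, at -1.17 (SE 0.158). Other effectors and targets had 7 higher and 1 lower of 11, with Ppp1r1b, which codes for DARPP-32, at 4.71 (SE 0.218) and Akap9, an anchoring protein, at 1.51 (SE 0.122). Several of these genes (Drd1, Adora2a, Rgs9, Pde10a and Ppp1r1b) are also among the medium spiny neuron markers, so the lists are not independent.

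**Figure D5:**
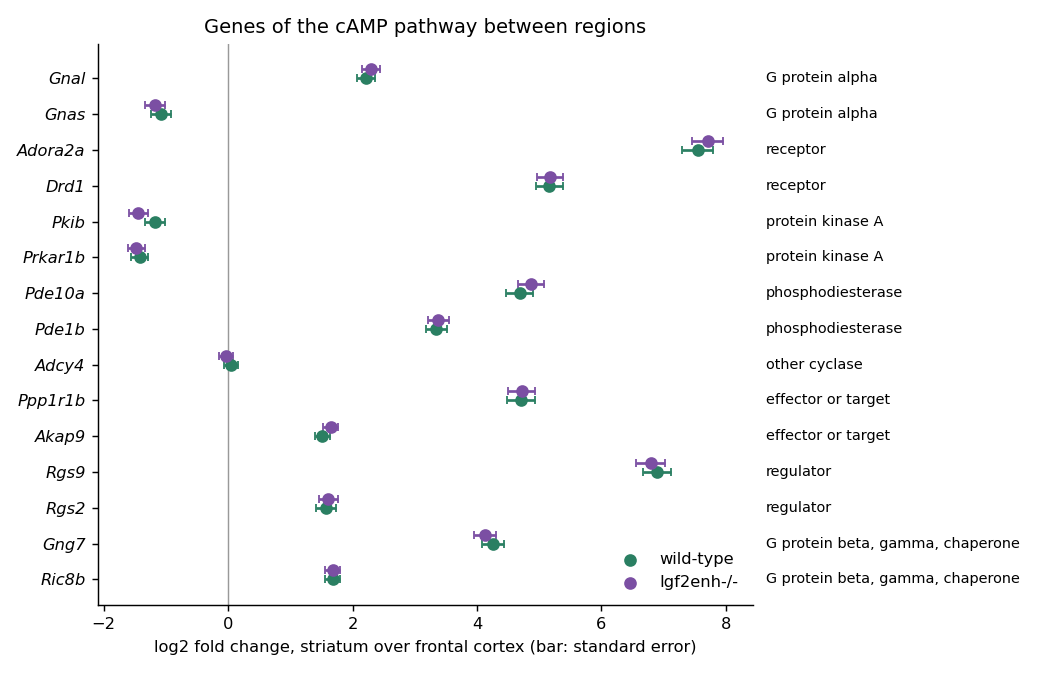
Log2 fold change, striatum over frontal cortex, with standard error (x axis) for the 2 genes of largest change in each role of the cAMP pathway (y axis, role at the right) in wild-type and Igf2enh-/- mice. Values in wild-type mice run from -1.42 for Prkar1b to 7.55 for Adora2a, and Adcy4 lies near 0.

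For genotype, 0 of 62 pathway genes passed in frontal cortex and 0 of 63 in striatum in edgeR's quasi-likelihood test, with 9 and 2 at an unadjusted p under 0.05, against 13.5% and 10.05% of all genes tested. The smallest p in frontal cortex was that of Chrm4, the M4 muscarinic receptor, which couples to Gi (log2 fold change -0.51, SE 0.127, edgeR adjusted p = 0.0940). Chrm4 was called in frontal cortex by DESeq2 (adjusted p = 0.0104) and by edgeR's likelihood ratio test (adjusted p = 0.0128), and limma-voom called 0 of 62. Without the filter on low counts edgeR called Chrm4 and Adrb1, a beta adrenergic receptor (log2 fold change -0.25, SE 0.0686). In striatum these tools called 0, and the difference between the genotype effects of the regions was called in 0 of 62 genes, with 3 at an unadjusted p under 0.05.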

How the data were processed

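Total RNA of frontal cortex and striatum was sequenced in 27 libraries after depletion of ribosomal RNA. Per the submitters' processing notes, the authors used bcl2fastq 1.9.0, Trim Galore 0.5.0 and STAR on GRCm38. The deposited values are raw counts of reads per gene, without normalization or filter, in a table for each region. The strand setting of the counting is not given in the sources used here. The tables held 0 columns of other series, and 32688 of 52636 identifiers had a symbol in GENCODE vM1 (NCBIM37), whose exons also gave the lengths. That is an older build than the GRCm38 of the counts.

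In R 4.3.3, edgeR 4.0.16 was run on genes that reached 1 CPM in all libraries of a fit. Scaling was by TMM, the model held sex beside genotype, and quasi-likelihood p-values were adjusted by Benjamini-Hochberg with a threshold of 0.05. Genotype was tested within each region, and regions in a joint fit of all libraries. The study counts the libraries of a region as separate mice, and p-values measure the spread between these libraries. Totals of 23686945 to 33926904 counts set the depth. As alternatives the likelihood ratio test of edgeR, limma-voom from limma 3.58.1 and DESeq2 1.42.0 were run, along with other scalings and filters, no sex term, an RNA integrity term (from the study's sample table), a joint fit, leaving out each library, and leaving out libraries 15 and 20. Genotype within each sex and its alternatives were added after the data were seen.

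The members, the 65 pathway genes and the 11 marker lists were chosen with earlier results of these data known. Named genes are all 8 members, the 2 pathway genes of largest region difference in each role, pathway genes called for genotype, and the 3 genes most like each member. Chrm4 and Adrb1 were named after their values were seen. Plots were made in matplotlib 3.10.9 under Python 3.11.15.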

Additional observations from a re-analysis of the deposited data

Results flagged for a closer look

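In each group of 6 to 8 libraries the highest and the lowest value of each of the 8 genes were compared with the rest by Dixon's ratio at its 95% critical value, 32 groups in all, of which chance picks out about 1 in 20. There were 3 such values. Adcy1 was 1128 CPM in library 7, an Igf2enh-/- frontal cortex library whose group had a median of 909.9 CPM. Adcy8 was 25.36 CPM in library 1, an Igf2enh-/- frontal cortex library whose group had a median of 19.09 CPM. Adcy9 was 43.55 CPM in library 19, an Igf2enh-/- striatal library whose group had a median of 56.5 CPM.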

How the results depend on the processing

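The region calls of all 8 members held under every alternative run. For genotype in frontal cortex the count of members called went from 0 to 1 (Adcy5) under the likelihood ratio test, under DESeq2 and without the low-count filter, and stayed at 0 otherwise. In females of frontal cortex alone it went from 0 to 1 (Adcy5) under DESeq2 and to 2 (Adcy5 and Adcy7) without the low-count filter, and stayed at 0 under the other alternatives run, leaving out each library included. In males it stayed at 0 under all of these. The summed level without division by length was 1554 CPM in wild-type and 1588 CPM in Igf2enh-/- frontal cortex, and 2361 CPM and 2434 CPM in striatum. Of the shares of single genes under other lengths or without libraries 15 and 20, 26 moved by more than 1 SD, all under another length or none, and 54 did not.

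Log2 genotype effects that changed sign were all far from the threshold, and the cause was not tested. In frontal cortex, with an RNA integrity term, Adcy1 was -0.0057 and Adcy6 -0.0096. In striatum, without libraries 15 and 20, Adcy1 was 0.16, Adcy2 0.15, Adcy3 -0.016 and Adcy5 -0.043. Adcy2 was 0.029 in limma-voom, and Adcy8 was -0.0036 without the sex term and -0.052 with RNA integrity. Leaving out 1 library gave, in frontal cortex, Adcy1 -0.050 to 0.036, Adcy6 -0.0082 to 0.029 and Adcy9 -0.091 to 0.043. In striatum it gave Adcy1 -0.16 to 0.11, Adcy2 -0.11 to 0.13, Adcy3 -0.013 to 0.090, Adcy5 -0.037 to 0.15, Adcy6 -0.20 to 0.0074, Adcy7 -0.0038 to 0.18, Adcy8 -0.093 to 0.17 and Adcy9 -0.055 to 0.050.

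No paired analysis was possible because the labels give each library its own number and do not tie libraries of the regions or genotypes together.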

Other observations

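Adcy4, the remaining membrane cyclase of the beta-gamma group, differed little between the tissues. Its mean was 3.44 ± 0.319 CPM (SD, n = 6) in wild-type frontal cortex and 3.54 ± 0.599 CPM (SD, n = 7) in wild-type striatum, with a log2 difference of 0.05 (standard error 0.110, adjusted p = 0.719 in edgeR). Adcy10, the soluble cyclase that responds to bicarbonate, was under the filter on low counts. It had 0.503 to 0.808 CPM in wild-type frontal cortex and 0 to 0.237 CPM in wild-type striatum, and was not tested.

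In frontal cortex 1 Igf2enh-/- female library, number 1, held the highest Adcy5 (167.7 CPM), Adcy7 (21.17 CPM) and Adcy8 (25.36 CPM) and the lowest Adcy2 (214.5 CPM) and Adcy9 (55.2 CPM) of its group. Its sums of spiny neuron, cortical and oligodendrocyte markers were 185.3, 3349 and 855.3 CPM, the lowest of its group, and its Igf2 level, 172.9 CPM, the highest. It also held the highest astrocyte (1061 CPM), meningeal fibroblast (101.7 CPM) and choroid plexus (8.03 CPM) marker sums of the 12 frontal cortex libraries.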
